A study of Rattus norvegicus with 13 samples.

Results

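The endoplasmic reticulum (ER) folds the proteins that a cell secretes or places in its membranes, and 35 genes of its folding and degradation machinery were followed here in rat hearts. They were chosen by name, with earlier results of these data known. The list holds 10 chaperones and co-chaperones, 7 enzymes of disulfide bond formation, 10 genes of the degradation of misfolded proteins, 5 stress sensors and transcription factors and 3 genes of protein translocation into the ER. All 35 are among the 25600 names of the 2-month table and among the 38600 names of the tables of 6 and 8 months. Total RNA of whole heart tissue was sequenced in bulk. Hearts of the sonogenetic group (ST) carry the labelled genotype MscL-G22S, which is an altered mechanosensitive channel from bacteria, and were transduced with AAV2/9-cTnT-MscL-G22S-mCherry, in which the promoter of cardiac troponin T, active in heart muscle cells, drives the channel. Hearts labelled WT have no treatment listed, so that the virus and the channel it carries cannot be told apart. At 2 months there were 2 ST and 2 WT hearts and at 6 months 3 of each; the 8-month group consists of 3 ST hearts, without WT. The titles call them biological replicates. The labels give no strain, sex or pooling. They also leave unsaid what the months are counted from, birth or transduction, and whether any heart was exposed to ultrasound.

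In the lumen of the ER, the chaperone BiP (Hspa5) binds unfolded chains, the lectins calnexin and calreticulin hold sugar-bearing ones, and protein disulfide isomerases form and rearrange their disulfide bonds. Chains that fail to fold are passed back through the membrane by the Sel1l and Hrd1 (Syvn1) ligase complex and destroyed by the proteasome. When unfolded protein accumulates, the membrane sensors IRE1 (Ern1), PERK (Eif2ak3) and ATF6 signal to the nucleus in the unfolded protein response, IRE1 by splicing the mRNA of Xbp1. In heart muscle much of this membrane system is the sarcoplasmic reticulum, which stores the calcium for contraction, and several of the chaperones bind calcium.

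The response acts on chaperone genes through short promoter elements, so the promoters of the genes were read first. RefSeq windows of the rat assembly GRCr8, each from 250 bases before to 50 bases after the annotated start, were at hand for 26 of the 35 genes. The ER stress element ERSE, an NF-Y box and an ATF6 or XBP1 box at a fixed distance, searched on both strands with no mismatch, occurs in 9 of these 26 genes (34.6%), against 22 of 33469 windows in the whole table (0.0657%). Its variant ERSE-II, with the boxes closer together, occurs in 3 of the 26, against 17 of all windows (0.0508%), and the XBP1-binding element UPRE in 1, against 199 of all windows (0.595%). Since several of these genes are those in which the elements were first described, the shares describe the promoters and test nothing. The stretches below belong to genes of the list that hold an ERSE or ERSE-II. They run in the direction of the gene, and capitals mark the fixed letters of an element or of its reverse complement.
Hspa5: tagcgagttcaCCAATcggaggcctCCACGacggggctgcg
Hsp90b1: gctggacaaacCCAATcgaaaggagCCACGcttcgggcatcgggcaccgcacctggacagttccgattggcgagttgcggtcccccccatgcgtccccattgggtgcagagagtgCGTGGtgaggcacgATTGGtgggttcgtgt
Calr: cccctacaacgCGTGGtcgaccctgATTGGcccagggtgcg
Canx: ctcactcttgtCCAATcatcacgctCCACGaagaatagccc
Dnajc3: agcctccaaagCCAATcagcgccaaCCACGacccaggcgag
Creld2: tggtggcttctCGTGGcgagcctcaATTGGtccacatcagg
Ero1b: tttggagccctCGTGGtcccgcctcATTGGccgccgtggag
Xbp1: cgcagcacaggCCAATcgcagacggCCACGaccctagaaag
Hyou1: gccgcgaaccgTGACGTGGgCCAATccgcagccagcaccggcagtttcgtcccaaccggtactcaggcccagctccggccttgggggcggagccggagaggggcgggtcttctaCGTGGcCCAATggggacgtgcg
Herpud1: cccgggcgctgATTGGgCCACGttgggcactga

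The Hspa5 stretch lies at chr3:38452962-38453002 (+ strand), from 54 to 14 bases before the annotated start, with 1 ERSE. Hsp90b1 has 2 of them within chr7:23012336-23012480 (− strand), facing each other. The elements of Calr (chr19:40213124-40213164 (+ strand)), Creld2 (chr7:121789228-121789268 (+ strand)) and Ero1b (chr17:92941447-92941487 (+ strand)) read opposite to the gene. Those of Canx (chr10:35158058-35158098 (− strand)), Dnajc3 (chr15:102432523-102432563 (+ strand)) and Xbp1 (chr14:84604547-84604587 (+ strand)) read along it. Hyou1 (chr8:53602680-53602815 (+ strand)) has 2 ERSE-II, the first of which overlaps the UPRE. Herpud1 (chr19:10614810-10614842 (− strand)) has 1 ERSE-II, as has Dnajb11, whose element crosses the annotated start and is not printed. Derl3, the ninth gene with an ERSE, had too few counts to carry a result.

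**Figure D1:**
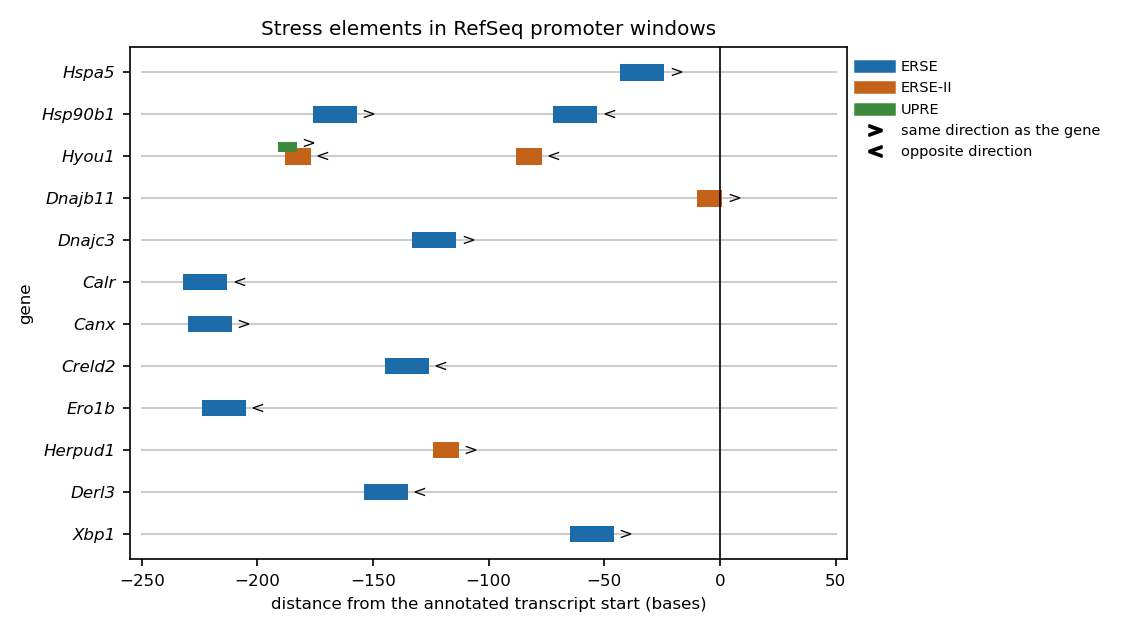
Position of each element in the promoter windows of the 12 genes that hold an ERSE or ERSE-II, in bases from the annotated transcript start (vertical line); colours give the element and arrowheads its direction relative to the gene. Hsp90b1 has 2 ERSE and Hyou1 has 2 ERSE-II and a UPRE, and the remaining genes have 1 element each.

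The libraries held 6.54 to 11.3 M counts in the 2-month table, 6.72 to 8.49 M in the 6-month table and 4.70 to 5.57 M in the 8-month table. The transgene MSCL_G22S had 0 counts in the 5 WT libraries. In ST replicates, in order of number, it had 127 and 94 counts at 2 months, 1321, 767 and 1667 at 6 months and 752, 610 and 1003 at 8 months. Heart muscle markers summed to 58518 CPM (counts per M counts, scaled by TMM) or more in every library, and none of those listed in a group's table was at 0, so the tissue label holds. B and plasma cells, of which plasma cells are rich in ER chaperones, left almost no trace. Their 10 markers summed to between 0.978 and 3.67 CPM in every library. Ms4a1 was at 0 in all hearts of 6 and 8 months, whereas Jchain and Mzb1 were detected in every group, at up to 1.06 CPM. Levels are given as CPM, scaled within the 2-month table and, separately, across the tables of 6 and 8 months, so that a level at 2 months is not set against a later one. A gene is called where the two-sided quasi-likelihood test of edgeR gives it a Benjamini-Hochberg adjusted p under 0.05 over all genes tested.

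The first question was how the ER genes of ST hearts differed from those of WT hearts at 2 months. Few differed past the test, and most chaperones lay slightly lower in ST hearts. Of the 34 genes with enough counts to test, 2 were called, Dnajb11 lower and Edem1 higher, against a background of 4.80% of 12121 genes (2.70% higher and 2.10% lower). At an unadjusted p under 0.05 there were 10 of the 34, the 2 called genes included, against 2259 of 12121 over all genes. The median log2 fold change of the 34 was -0.14, against 0.00 over all genes tested. ST and WT hearts did not overlap for 18 of the 34, 4 of them higher and 14 lower in ST, against a background of 48.9% of genes. In these bulk samples fewer cells of a type and less RNA per cell cannot be told apart.

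Dnajb11, a co-chaperone that delivers unfolded chains to BiP, measured 28.1 and 28.9 CPM in the ST hearts and 44.0 and 39.5 CPM in the WT hearts of 2 months. Both ST hearts lay below both WT hearts, a log2 fold change of -0.56 (SE 0.142, adjusted p = 0.0314). Edem1, a lectin-like protein that routes misfolded glycoproteins to degradation, had 69.8 and 58.8 CPM in ST hearts, against 44.4 and 44.5 CPM in WT hearts. It was higher in both ST hearts, by 0.53 (SE 0.138, adjusted p = 0.0321). These calls rest on few libraries. Leaving out WT replicate 1 gave adjusted p of 0.455 for Dnajb11 and 0.324 for Edem1, without WT replicate 2 it was 0.0957 and 0.257, and without ST replicate 1 that of Edem1 was 0.0559; DESeq2 gave adjusted p = 0.103 and 0.0747.

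Of the 10 chaperones at 2 months, 9 had a negative log2 fold change, with a median of -0.28 over the 10. Hspa5 measured 393 and 384 CPM in ST and 473 and 462 CPM in WT hearts, without overlap but short of the threshold, at -0.27 (SE 0.125, adjusted p = 0.263). The same held for Sdf2l1, a partner of BiP-bound co-chaperones, at -0.79 (SE 0.271, adjusted p = 0.115), and for Pdia4, a disulfide isomerase, at -0.44 (SE 0.142, adjusted p = 0.0893); Pdia4 passed without ST replicate 1 (adjusted p = 0.0203). Herpud1, a membrane protein that organises the degradation complex, had 212 and 232 CPM in ST hearts, against 160.1 and 169 CPM in WT hearts. Both ST hearts were above both WT hearts, at 0.43 (SE 0.127, adjusted p = 0.0619), and the gene passed with DESeq2 (adjusted p = 0.0468) and without ST replicate 1 or 2 (adjusted p = 0.0078 and 0.0378). The disulfide enzymes had 0 calls of 7, with 2 at an unadjusted p under 0.05. Ero1a was higher in ST hearts, at 0.38, and at 0.52 without ST replicate 2. The chaperone Hyou1 was lower, at -0.34, and at -0.42 without that library. The sensors had 0 of 5 (1 at an unadjusted p under 0.05) and the translocation genes 0 of 3 (0 at an unadjusted p under 0.05), and DESeq2 called none of these 15 genes either. Edem2, Creld2 and Sec61b had wide errors, with SE of 0.323, 0.313 and 0.281, and Derl3, with 3 to 7 counts per library, was not tested.

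The same comparison at 6 months gave a different picture of the chaperones. Of the 35 genes, 16 were called (45.7%), 13 of them higher and 3 lower in ST hearts. The background at 6 months was 40.0% of 13253 genes, with 19.9% called higher and 20.1% called lower, while the ER genes had 37.1% called higher and 8.57% called lower. The median log2 fold change of the 35 was 0.16, against 0.00 over all genes. Groups did not overlap for 19 of the 35 (15 higher and 4 lower), against a background of 51.7%. Folding genes made up most of the calls: 7 of 10 chaperones and 4 of 7 disulfide enzymes were higher, whereas edgeR and DESeq2 both called 0 of 10 degradation genes higher. Of these 10, 3 had an unadjusted p under 0.05, against 6432 of 13253 over all genes. The contrast holds for the 35 genes only. In the wider lists described below, 6 of 44 other folding enzymes and 12 of 37 other degradation genes were called higher.

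Hspa5, the gene of BiP, had 919.5, 1030.4 and 944 CPM in the ST hearts and 554, 639 and 679 CPM in the WT hearts. All 3 ST hearts lay above all 3 WT hearts, and the log2 fold change was 0.63 (SE 0.0840, adjusted p = 0.000117). Hsp90b1, the HSP90 of the ER, measured 533, 588 and 536 CPM in ST and 339.6, 363 and 370.0 CPM in WT hearts. It was higher in all ST hearts by 0.63 (SE 0.0697, adjusted p = 2.78e-05), the same size as Hspa5. Calnexin (Canx) had 544, 571 and 555 CPM in ST hearts, against 419.9, 442 and 426 CPM in WT hearts, and calreticulin (Calr) had 587, 647 and 603 CPM, against 459.8, 473 and 507 CPM. Neither overlapped, with log2 fold changes of 0.38 (SE 0.0620) and 0.36 (SE 0.0686). Dnajb11 reached 51.0 ± 1.27 CPM in ST hearts and 37.6 ± 4.13 CPM in WT hearts (SD, n = 3 each; log2 fold change 0.44 (SE 0.0922)), opposite in sign to 2 months.

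Manf, a secreted ER protein that protects stressed cells, rose by 0.42 (SE 0.0811) and Dnajc3, a co-chaperone that also restrains PERK, by 0.31 (SE 0.0816). Of the remaining chaperones, Sdf2l1 had 13.0, 16.9 and 16.2 CPM in ST and 7.66, 11.4 and 13.9 CPM in WT hearts, with overlap and without a call (0.49 (SE 0.190, adjusted p = 0.0566); adjusted p = 0.0455 without ST replicate 1 and 0.0189 without WT replicate 3). Hyou1, a nucleotide exchange factor of BiP, was at -0.02, and Dnajb9, a co-chaperone that keeps IRE1 inactive, was at 0.05. Both overlapped between the groups.

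Among the disulfide enzymes at 6 months, Creld2, a target of ATF6 with isomerase activity, had 15.0, 15.6 and 11.9 CPM in ST hearts, against 9.85, 10.1 and 9.90 CPM in WT hearts. The WT hearts were nearly equal and all ST hearts lay above them, at 0.51 (SE 0.137, adjusted p = 0.0108). Pdia3, the isomerase that works with calnexin and calreticulin, rose by 0.29 (SE 0.0705) and Pdia6, which also binds IRE1, by 0.31 (SE 0.0867). The oxidases that recharge the isomerases moved in opposite directions. Ero1a had 59.8, 48.1 and 57.9 CPM in ST and 38.2, 46.9 and 41.7 CPM in WT hearts (0.39 (SE 0.107, adjusted p = 0.0130)). Ero1b had 10.8, 11.6 and 9.30 CPM in ST and 14.0, 16.3 and 12.7 CPM in WT hearts (-0.43 (SE 0.141, adjusted p = 0.0285)). Neither overlapped, but Ero1a lost its call without ST replicate 1 or 3 (adjusted p = 0.0555 and 0.0516), and Ero1b without ST replicate 1 or 3 or WT replicate 2 (adjusted p = 0.0610, 0.114 and 0.126) and with DESeq2 (adjusted p = 0.100). P4hb, the founding isomerase of the family, had a log2 fold change of -0.14 (SE 0.0659, adjusted p = 0.106) and Pdia4 one of 0.21 (SE 0.106, adjusted p = 0.136).

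The degradation genes stayed close to 0 at 6 months, with a median log2 fold change of -0.01 over the 10. Edem1 was the 1 called gene and was lower: 42.6, 43.8 and 41.0 CPM in ST hearts, against 51.6, 54.6 and 52.7 CPM in WT hearts. All ST hearts lay below all WT hearts, at -0.31 (SE 0.0771, adjusted p = 0.00697), the opposite of 2 months. Herpud1 had 239, 299.8 and 244 CPM in ST and 313, 292 and 295 CPM in WT hearts, with ST replicate 2 inside the WT range, and was not called (-0.20 (SE 0.0864, adjusted p = 0.0905)). Without that library it passed (-0.31, adjusted p = 0.00245). Sel1l, the scaffold of the ligase complex, was at 0.16 (SE 0.0687) and its ligase Syvn1 at -0.03 (SE 0.0956), and neither passed. Derl1 and Derl2, channel-like proteins through which chains leave the ER, had 0.06 and 0.03, and the mannosidase-like Edem3 and the lectin Os9 had -0.01 and 0.00.

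Of the stress sensors at 6 months, Ern1 and Eif2ak3 moved furthest of all 35 genes and in opposite directions. Ern1, the sensor IRE1, had 74.6, 62.0 and 80.6 CPM in ST hearts, against 42.0, 34.98 and 38.5 CPM in WT hearts. Every ST heart was above every WT heart, at 0.91 (SE 0.106, adjusted p = 4.2e-05). Eif2ak3, the sensor PERK, had 10.3, 9.72 and 7.86 CPM in ST hearts, against 20.1, 20.5 and 21.1 CPM in WT hearts. Every ST heart was below every WT heart, at -1.14 (SE 0.125, adjusted p = 2.54e-05). Xbp1, whose mRNA IRE1 splices, had 83.4, 104 and 94.3 CPM in ST and 75.7, 80.8 and 84.0 CPM in WT hearts. ST replicate 1 fell inside the WT range and the gene missed the threshold narrowly (0.24 (SE 0.0884, adjusted p = 0.0503); adjusted p = 0.0206 without that library). Gene totals do not separate spliced from unspliced Xbp1. Atf6 and its relative Atf6b were at 0.11 (SE 0.0854) and 0.11 (SE 0.0912), without a call.

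Of the translocation genes, Sec61a1, the pore of the channel, had 59.5, 62.3 and 65.9 CPM in ST and 50.2, 44.4 and 50.9 CPM in WT hearts and rose by 0.37 (SE 0.0823, adjusted p = 0.00377). Sec61b, a small subunit of the channel, was at 0.34 (SE 0.190) and Ssr1, a subunit of the translocon-associated complex, at 0.14 (SE 0.0733), without a call.

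**Figure D2:**
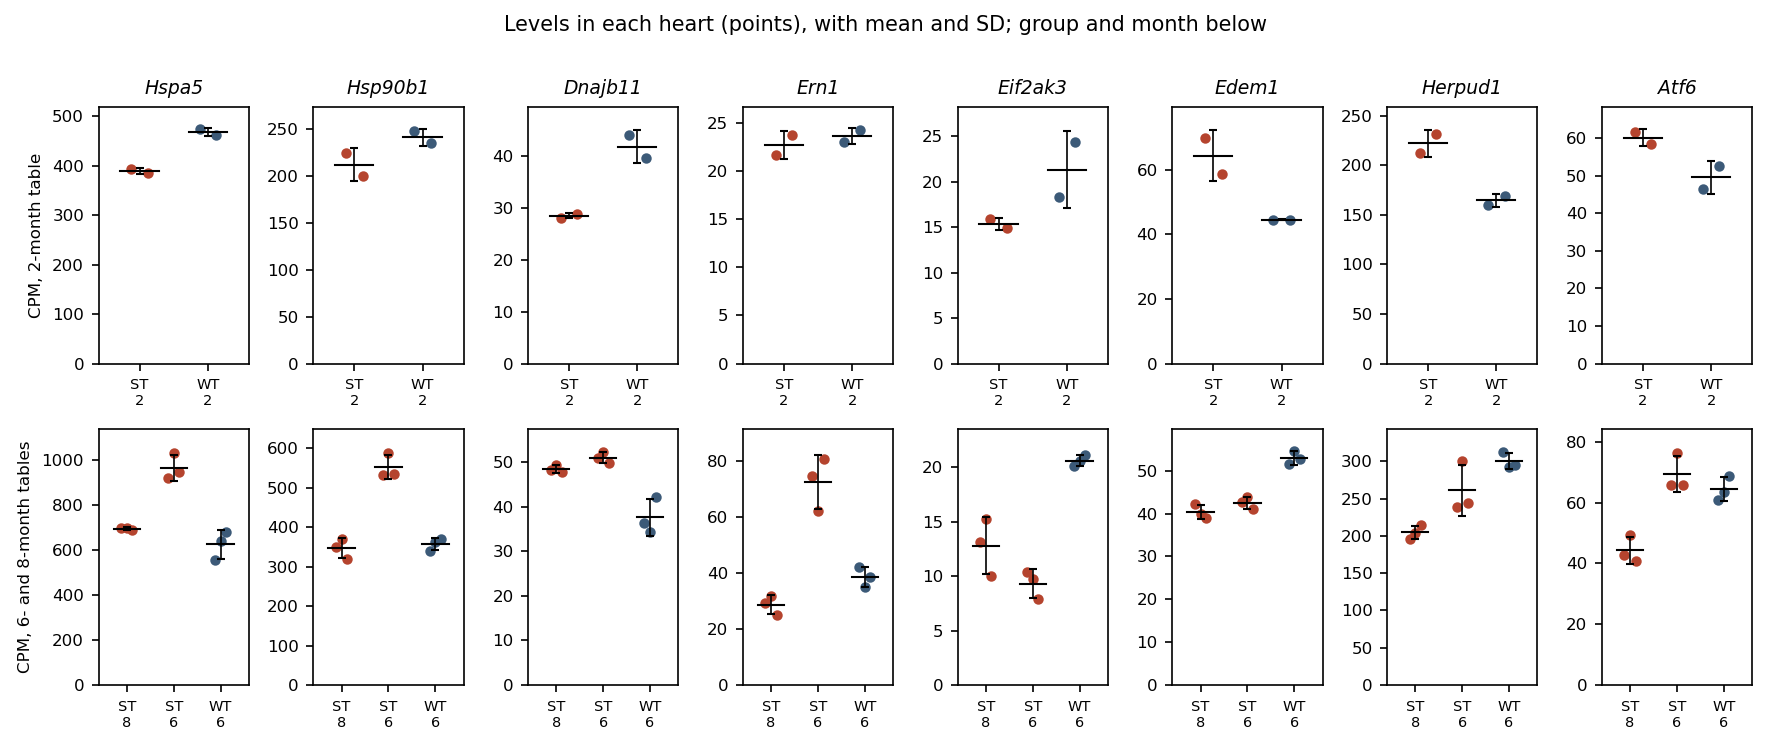
CPM of 8 of the genes in every heart (points), with the group mean and SD (bars); upper row the 2-month table (n = 2 per group), lower row the tables of 6 and 8 months (n = 3 per group), each with its own scale. At 6 months the ST hearts have 919.5 to 1030.4 CPM of Hspa5 and 7.86 to 10.3 CPM of Eif2ak3, against 554 to 679 and 20.1 to 21.1 CPM in the WT hearts.

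Scaling mattered for the smaller changes at 6 months. With library totals in place of TMM, the median of all genes moved by -0.11 on the log2 scale and the calls over all genes were 1731 higher and 3714 lower, against 2643 and 2662 with TMM. The ER genes then had 9 higher and 5 lower of 35: Dnajc3, Pdia3, Pdia6 and Ero1a were no longer called, at adjusted p between 0.0566 and 0.0766, and P4hb and Herpud1 were called lower. Reads from an overlapping gene cannot be told apart where counting ignores strand, and no source used here says whether it did. In GRCr8 Creld2 overlaps Alg12, Pdia3 overlaps Catsper2, Syvn1 overlaps Mrpl49 and Derl3 overlaps Smarcb1. Dnajc3, Ero1a, Ern1 and Edem3 each overlap 1 annotated gene named for another family, such as the ribosomal protein pseudogene Rps10-ps6 for Ern1.

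By promoter, 7 of the 12 genes with an ERSE or ERSE-II were called higher in ST hearts at 6 months and 1 lower (Ero1b), with a median log2 fold change of 0.33. Over all genes 19.9% were called higher and 20.1% lower. These 7 are Hspa5, Hsp90b1, Dnajb11, Dnajc3, Calr, Canx and Creld2, whose stretches are printed above except that of Dnajb11. All but Creld2 are chaperones, and promoter element and role of the gene were not separated. Of the 14 genes whose window has neither element, 0 were called higher and 2 lower, with a median of 0.04; 4 of the 14 had an unadjusted p under 0.05, and DESeq2 also called 0 of them higher. Of the 9 genes without a window, 6 were called higher and 0 lower, and all 9 had a positive log2 fold change, so that the split by promoter covers 26 genes only. Hyou1 and Herpud1 hold an ERSE-II and were not called. At 2 months 1 of 11 genes with an element was called lower and 1 of the 14 with neither higher. In ST hearts of 8 against 6 months, 9 of 11 with an element were lower. Of the 14, 1 was higher and 5 lower. Against WT hearts of 6 months, 1 of 11 was higher and 3 lower, and 1 of the 14 higher and 4 lower. For the difference of the effect, 6 minus 2 months, 5 of 12 were higher and 1 lower, and 2 of the 14 higher and 2 lower.

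**Figure D3:**
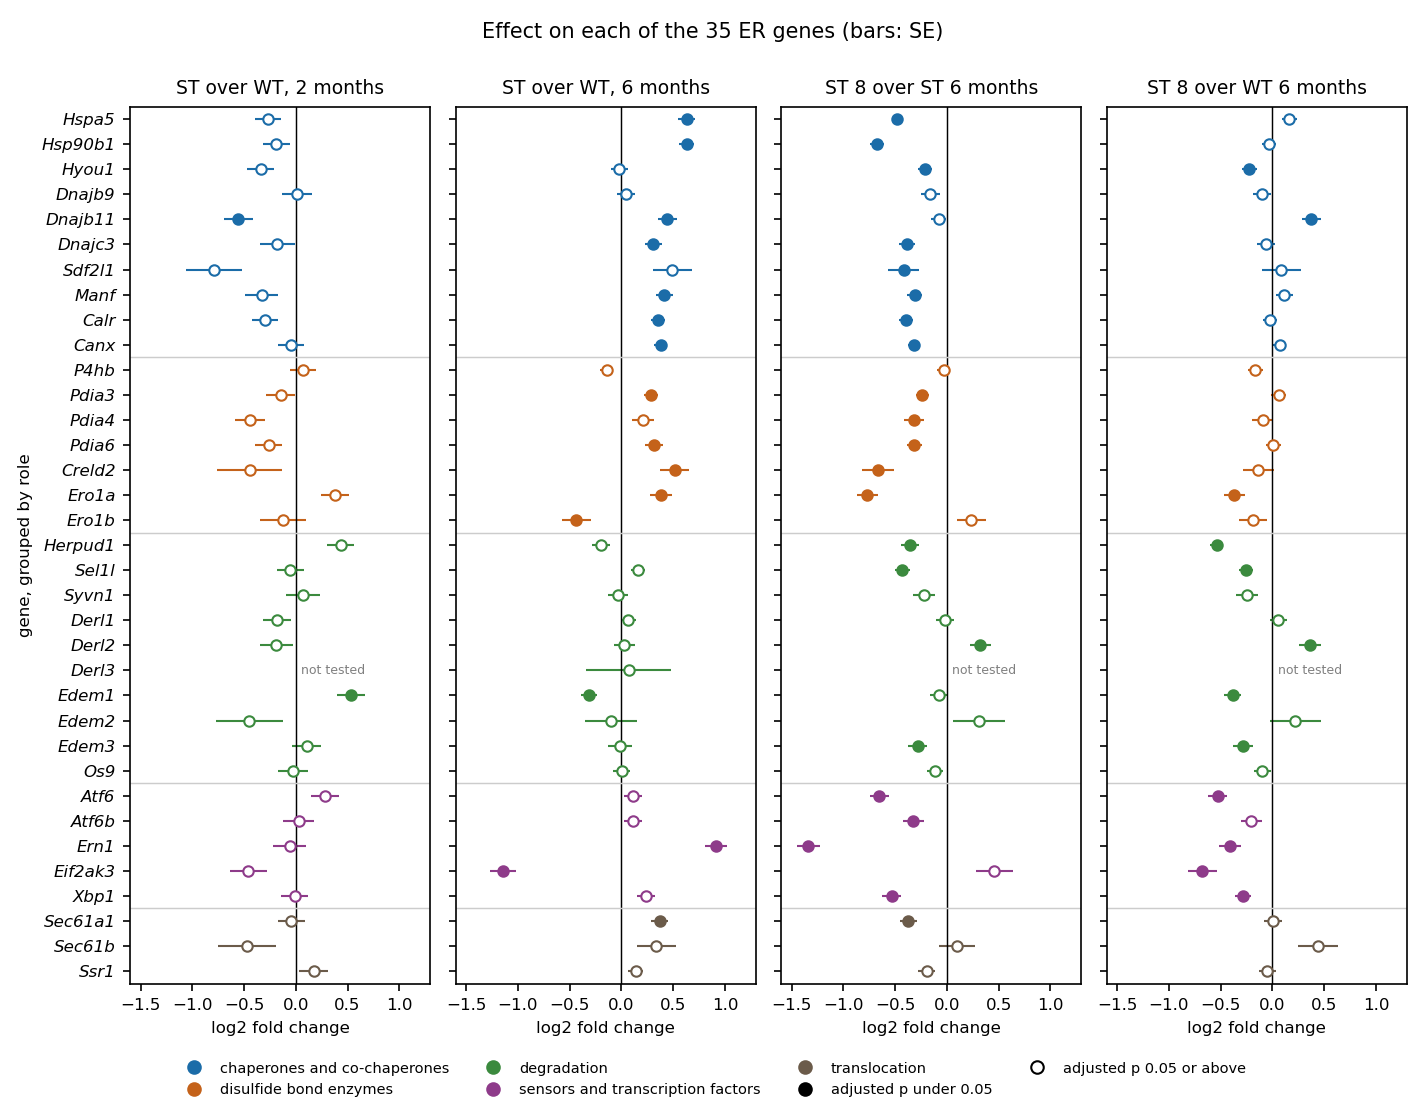
Log2 fold change of each of the 35 genes (points, bars 1 SE) in the comparisons ST over WT at 2 months, ST over WT at 6 months, ST at 8 over ST at 6 months and ST at 8 over WT at 6 months; filled points have an adjusted p under 0.05. At 6 months 13 filled points lie to the right of 0 and 3 to the left, and at 8 against 6 months 1 lies to the right and 21 to the left.

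Whether the effect itself differed between 2 and 6 months was tested as the interaction of group and time. The groups of 2 and of 6 months share no hearts, and the contrast cancels a constant difference between the tables. It takes no account of the transgene counts, which are given above by time. Of the 35 genes, 14 differed, 11 with a higher and 3 with a lower effect at 6 months. The background for this difference was 22.2% of 12659 genes, with 10.2% higher and 12.0% lower. The median difference was 0.31 over the 35 genes and -0.02 over all genes. By sign alone, 25 of 34 genes (73.5%) lay on opposite sides of 0 at the 2 times, 20 of them lower at 2 and higher at 6 months, against 5872 of 11450 of all genes (51.3%).

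Chaperones were 7 of the 11 with a higher effect at 6 months. The effect on Hspa5 was 0.63 at 6 and -0.27 at 2 months, a difference of 0.89 (SE 0.133, adjusted p = 0.000226). Dnajb11 stood at 0.44 and -0.56, a difference of 0.99 (SE 0.152, adjusted p = 0.000275), and was called in opposite directions at the 2 times. Hsp90b1 differed by 0.81 (SE 0.128), Manf by 0.73 (SE 0.152), Calr by 0.64 (SE 0.121) and Canx by 0.41 (SE 0.118). For Sdf2l1, which was called at neither time, the difference was 1.27 (SE 0.334, adjusted p = 0.0125). Pdia4 and Pdia6 also had higher effects at 6 months, by 0.64 (SE 0.174) and 0.56 (SE 0.148), as had Ern1, by 0.96 (SE 0.179, adjusted p = 0.00132), and Sec61a1, by 0.40 (SE 0.134, adjusted p = 0.0396).

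The 3 genes with a lower effect at 6 months were Edem1, Herpud1 and Eif2ak3. Edem1 was at -0.31 at 6 and 0.53 at 2 months, a difference of -0.86 (SE 0.139, adjusted p = 0.000427). Herpud1 was at -0.20 and 0.43, a difference of -0.64 (SE 0.143, adjusted p = 0.00470). Eif2ak3 was at -1.14 and -0.46, negative at both times, and differed by -0.70 (SE 0.212, adjusted p = 0.0259). Some of these differences rest on single hearts. Without WT replicate 1 of 2 months, 10 of the 35 genes were called, and Canx, Pdia4, Pdia6, Eif2ak3 and Sec61a1 were not, at adjusted p between 0.0877 and 0.154. Sdf2l1 lost its call without WT replicate 2 or ST replicate 1 of 2 months (adjusted p up to 0.0678), Pdia6 without ST replicate 1 of 2 months (adjusted p = 0.0529), Eif2ak3 without ST replicate 1 of 2 months, ST replicate 3 of 6 months or WT replicate 3 of 6 months (adjusted p up to 0.0849), and Sec61a1 without 6 of the 10 libraries, 4 of them those of 2 months. DESeq2 did not call the differences of Eif2ak3 and Sec61a1 (adjusted p = 0.0750 and 0.0748), and library totals took away those of Canx and Sec61a1 (adjusted p = 0.0565 and 0.0976).

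**Figure D4:**
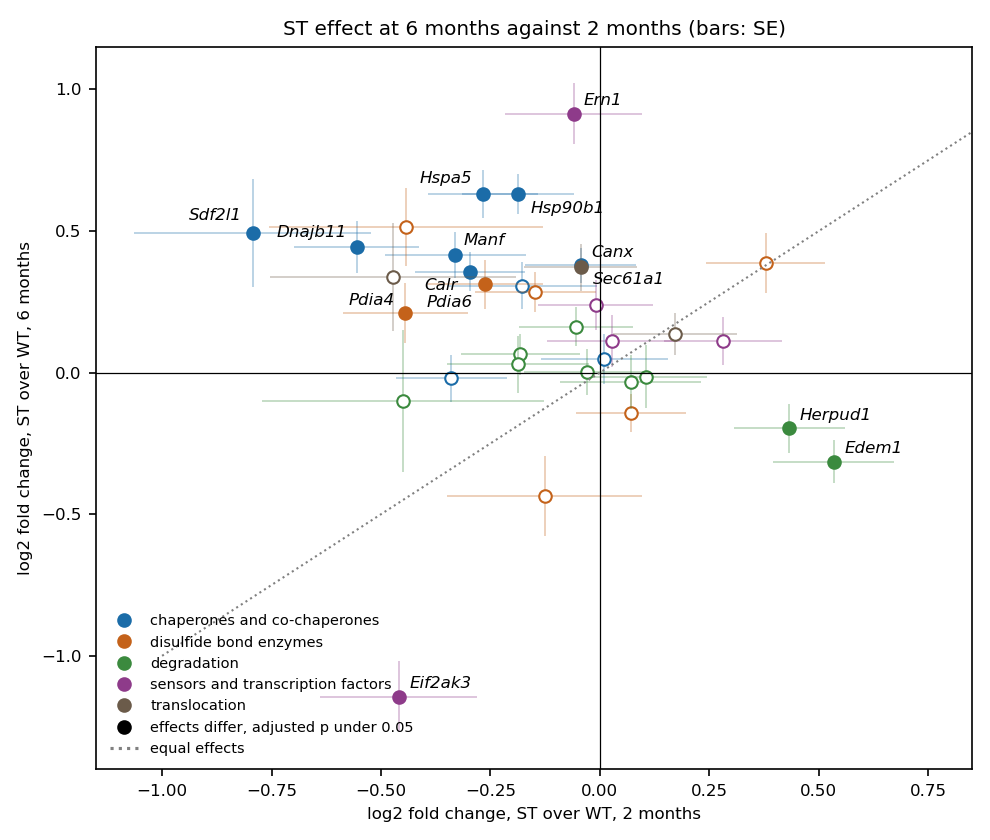
Log2 fold change of ST over WT at 6 months (y axis) against that at 2 months (x axis) for the 34 genes tested at both times, with 1 SE as bars and the line of equal effects dotted; filled points differ between the times at an adjusted p under 0.05. Hspa5, Hsp90b1 and Dnajb11 lie in the upper left, lower at 2 and higher at 6 months, and Edem1 and Herpud1 in the lower right.

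At 8 months the ST hearts can be set against the ST hearts of 6 months and against the WT hearts of 6 months. There were no WT hearts of 8 months, so time and group cannot be told apart in the second. These comparisons share libraries with each other and with that of 6 months, and values are therefore given side by side. Against ST hearts of 6 months, 22 of 34 genes were called, 1 higher and 21 lower, over a background of 39.6% of 12931 genes, of which 19.1% higher and 20.5% lower. Groups did not overlap for 26 of the 34 (2 higher and 24 lower), against a background of 51.0%. The median log2 fold change was -0.31, against 0.02 over all genes. Against WT hearts of 6 months, 12 of 34 (35.3%) were called, 2 higher and 10 lower, over a background of 33.9% of 13095 genes, of which 17.8% higher and 16.1% lower. There 16 of the 34 did not overlap (3 higher and 13 lower), against a background of 46.8%, and the median was -0.10, against -0.01 over all genes. Scaled by library totals, calls over all genes were 3072 higher and 2140 lower against ST of 6 months (2464 and 2651 with TMM) and 1880 higher and 2856 lower against WT of 6 months (2329 and 2112 with TMM). The ER genes then had 2 higher and 17 lower, and 2 higher and 13 lower.

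Most chaperones at 8 months were lower than in the ST hearts of 6 months and were not called against the WT hearts of 6 months. Hspa5 had 698, 696 and 688 CPM in ST hearts of 8 months, 964 ± 58.3 CPM in ST hearts of 6 months and 624 ± 64.0 CPM in WT hearts of 6 months (SD, n = 3 each). The 8-month hearts were all below the ST hearts and all above the WT hearts of 6 months, with log2 fold changes of -0.48 (SE 0.0574, adjusted p = 3.32e-05) and 0.16 (SE 0.0738, adjusted p = 0.0969). The second passed without WT replicate 3 (adjusted p = 0.0348). Hsp90b1 had 350.1, 369 and 319.6 CPM in ST hearts of 8 months with a log2 fold change of -0.68 (SE 0.0691) against ST hearts of 6 months, which had 552 ± 31.2 CPM (SD, n = 3). Against WT hearts of 6 months it overlapped, at -0.03 (SE 0.0702). In all, 8 of 10 chaperones were lower than in ST hearts of 6 months, among them Calr at -0.39 (SE 0.0643), Dnajc3 at -0.38 (SE 0.0771), Canx at -0.32 (SE 0.0542) and Manf at -0.31 (SE 0.0726). Sdf2l1 was among them, at -0.42 (SE 0.148, adjusted p = 0.0394), and lost its call with DESeq2, with library totals and without ST replicate 2 or 3 of 6 months or any ST replicate of 8 months (adjusted p up to 0.135). Against WT hearts of 6 months 1 was higher and 1 lower.

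The chaperones not called against ST hearts of 6 months were Dnajb9, at -0.16 (SE 0.0936, adjusted p = 0.200), and Dnajb11. Dnajb11 had 48.1, 49.4 and 47.7 CPM in ST hearts of 8 months, 51.0 ± 1.27 CPM in ST hearts of 6 months and 37.6 ± 4.13 CPM in WT hearts of 6 months. The 8-month hearts lay below the ST hearts of 6 months without a call (-0.08 (SE 0.0743, adjusted p = 0.430)), and the gene was higher than in WT (0.38 (SE 0.0934, adjusted p = 0.00547)). Hyou1 was lower in both comparisons, at -0.21 (SE 0.0685) and -0.22 (SE 0.0757). The first call was lost without ST replicate 2 of 6 months or ST replicate 2 of 8 months (adjusted p up to 0.107), and the second without WT replicate 2 or 3 or any ST replicate of 8 months (adjusted p up to 0.134). With library totals the first was lost (adjusted p = 0.0861), and with DESeq2 the second (adjusted p = 0.0594).

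Of the disulfide enzymes, 5 of 7 were lower than in ST hearts of 6 months. Ero1a, which hypoxia is also known to induce, had 32.0, 30.5 and 34.7 CPM in ST hearts of 8 months, 55.3 ± 6.26 CPM in ST hearts of 6 months and 42.2 ± 4.37 CPM in WT hearts of 6 months. The 8-month hearts were below both groups, at -0.77 (SE 0.0992, adjusted p = 6.06e-05) and -0.37 (SE 0.101, adjusted p = 0.00976), the second of which did not hold without WT replicate 2 (adjusted p = 0.0532) or ST replicate 2 of 8 months (adjusted p = 0.0514). Creld2 was lower than in ST hearts of 6 months, at -0.66 (SE 0.155), and at -0.14 (SE 0.149) against WT, where it was not called. Pdia3, Pdia4 and Pdia6 were lower than in ST hearts of 6 months, at -0.24, -0.31 and -0.31. Pdia4 lost that call without ST replicate 1 of 8 months (adjusted p = 0.0785).

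The degradation genes were lower at 8 months where they changed, apart from Derl2. Herpud1 had 196, 203 and 214 CPM in ST hearts of 8 months, 239, 299.8 and 244 CPM in ST hearts of 6 months and 313, 292 and 295 CPM in WT hearts of 6 months. The 8-month hearts lay below both groups, at -0.35 (SE 0.0856, adjusted p = 0.00559) and -0.54 (SE 0.0643, adjusted p = 9.63e-06). Sel1l was also lower in both, at -0.43 (SE 0.0709) and -0.26 (SE 0.0692). Edem1 was at -0.08 (SE 0.0805) against ST, without a call, and at -0.38 (SE 0.0825) against WT, where it was called, so that its level in ST hearts was below WT of 6 months at both later times. Edem3 was called lower in both, at -0.28 (SE 0.0937) and -0.28 (SE 0.0986), but each call was lost without any ST replicate of 8 months, the first also without ST replicate 2 of 6 months and the second without WT replicate 2 (adjusted p up to 0.0979 and 0.2002). DESeq2 called neither (adjusted p = 0.0685 and 0.0849), and the first was lost with library totals (adjusted p = 0.0751). Derl2 had 26.5, 23.2 and 25.3 CPM in ST hearts of 8 months, 19.5, 20.8 and 19.4 CPM in ST hearts of 6 months and 19.0, 20.4 and 19.3 CPM in WT hearts of 6 months. It was above both groups, at 0.32 (SE 0.103) and 0.36 (SE 0.107), but DESeq2 called neither (adjusted p = 0.144 and 0.0720). The first call was also lost with no filter on low counts (adjusted p = 0.0583) and without ST replicate 1 or 3 of 6 months or of 8 months, and the second without ST replicate 1 of 8 months (adjusted p up to 0.0946 and 0.0582).

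Of the 34 genes tested, a sensor had the largest fold change of ST hearts at 8 against 6 months. Ern1 had 29.2, 31.6 and 25.1 CPM in ST hearts of 8 months, 74.6, 62.0 and 80.6 CPM in ST hearts of 6 months and 42.0, 34.98 and 38.5 CPM in WT hearts of 6 months. The 8-month hearts were below both, at -1.34 (SE 0.114, adjusted p = 1.64e-06) and -0.41 (SE 0.106, adjusted p = 0.00656), and without ST replicate 3 of 8 months the second had an adjusted p of 0.0513. Atf6, which is cut in the Golgi to release a transcription factor, had 42.8, 49.4 and 40.7 CPM in ST hearts of 8 months, 65.9, 76.3 and 65.9 CPM in ST hearts of 6 months and 60.9, 63.6 and 68.9 CPM in WT hearts of 6 months. It did not overlap with either group, at -0.65 (SE 0.0954, adjusted p = 0.000163) and -0.53 (SE 0.0910, adjusted p = 0.000318). Xbp1 had 64.6, 67.1 and 63.8 CPM in ST hearts of 8 months and was lower than in ST hearts (-0.53 (SE 0.0875, adjusted p = 0.000392)) and WT hearts (-0.29 (SE 0.0750, adjusted p = 0.00749)) of 6 months. Eif2ak3 had 13.1, 15.3 and 10.003 CPM in ST hearts of 8 months. ST replicate 3 fell inside the range of the ST hearts of 6 months (0.46 (SE 0.179, adjusted p = 0.0584); adjusted p = 0.0236 without it and 0.0471 without ST replicate 2 of 6 months), and all were below the WT hearts (-0.68 (SE 0.139, adjusted p = 0.00132)). Thus 4 of 5 sensors and transcription factors were called lower than in WT hearts of 6 months, against a background of 16.1% of genes. Atf6b was lower than in ST hearts of 6 months (-0.32 (SE 0.102)), a call lost without ST replicate 1 or 3 of 6 months or ST replicate 1 or 2 of 8 months (adjusted p up to 0.106), with DESeq2 (adjusted p = 0.0605) and with library totals (adjusted p = 0.0552). Sec61a1 was lower than in ST hearts of 6 months, at -0.37 (SE 0.0796), and at 0.01 against WT. Called in neither comparison of 8 months were Dnajb9, P4hb, Ero1b, Derl1, Edem2, Syvn1, Os9, Sec61b and Ssr1, with log2 fold changes between -0.22 (Syvn1) and 0.31 (Edem2) against ST and between -0.24 (Syvn1) and 0.44 (Sec61b) against WT hearts of 6 months, and Derl3 was not tested.

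Genes that work with these 35 were followed through 4 lists of 154 further names. At 2 months 1 of the 144 tested was higher and 1 lower (1.39%, against a background of 4.80%). Cebpb, a transcription factor of stress and inflammation, rose by 1.17 (SE 0.171), and Pdia2, an isomerase best known from the pancreas, fell, at -1.22 (SE 0.230). At 6 months 41 of 149 were higher and 6 lower, 31.5% together, against a background of 40.0%, with 19.9% higher and 20.1% lower. Of the 149, 111 had a positive log2 fold change, against 6605 of 13253 over all genes, and their median was 0.13. Stress signalling had the largest share, with 14 higher and 2 lower of 28 (57.1%). Atf3, a transcription factor downstream of PERK and of many other stresses, had 83.9 ± 13.8 CPM in ST hearts and 2.96 ± 0.591 CPM in WT hearts (SD, n = 3 each), a log2 fold change of 4.82 (SE 0.172).

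Other folding enzymes had 6 higher and 2 lower of 44 at 6 months (18.2%). Serpinh1, the chaperone of collagen, had 336 ± 7.96 CPM in ST hearts and 222 ± 17.6 CPM in WT hearts, at 0.60 (SE 0.0733), and Dnajc1, a membrane co-chaperone of BiP, was at 0.68 (SE 0.136). Other degradation genes had 12 higher and 2 lower of 37 (37.8%), among them Dnajb2, a co-chaperone that delivers clients to the proteasome, at 0.60 (SE 0.0700). Translocation and glycosylation genes had 9 higher and 0 lower of 40 (22.5%), with Ostc, a subunit of the glycosylating transferase, at 0.32 (SE 0.0748).

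At 8 months 12 of 149 further genes were higher and 44 lower than in ST hearts of 6 months (37.6%, against a background of 39.6%, with 19.1% higher and 20.5% lower). Against WT hearts of 6 months 29 of 148 were higher and 17 lower (31.1%, against a background of 33.9%, with 17.8% higher and 16.1% lower). Atf3 had 8.23 ± 0.976 CPM in ST hearts of 8 months, at -3.35 (SE 0.149) against ST and 1.48 (SE 0.219) against WT hearts of 6 months. Stress signalling as a list had 3 higher and 6 lower of 27 against WT hearts of 6 months. Among the lower were Cebpb at -0.99 (SE 0.115) and Nupr1 at -1.11 (SE 0.204). Cdnf, a relative of Manf, was at -0.84 (SE 0.122) and -0.65 (SE 0.128). Of the translocation and glycosylation genes, 16 of 40 were higher and 2 lower than in WT hearts of 6 months. Ost4, a small subunit of the glycosylating transferase, had 101 ± 4.23 CPM in ST hearts of 8 months, at 0.52 (SE 0.0668) against ST and 0.72 (SE 0.0900) against WT, and Sec11c, a signal peptidase, was at 0.56 (SE 0.0911) and 0.65 (SE 0.0920).

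The difference of the effect between 6 and 2 months was called for 20 higher and 7 lower of 147 further genes (18.4%, against a background of 22.2%, with 10.2% higher and 12.0% lower). Atf3 differed by 4.51 (SE 0.349), Serpinh1 by 0.91 (SE 0.135) and Dnajb2 by 0.73 (SE 0.145). Qsox1, an oxidase of disulfide bonds, differed by -0.84 (SE 0.208).

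Markers of cell types moved along with some of these comparisons, and within several lists in both directions. At 6 months 10 heart muscle markers summed to 94475 to 100450.0 CPM in ST hearts and 101712 to 109330.0 CPM in WT hearts. The sums did not overlap, and neither did Myh6, at 36641 to 42939.8 CPM in ST and 52134 to 56483 CPM in WT hearts, whereas over the list 3 markers were called higher and 1 lower, with a median log2 fold change of 0.11. The 9 fibroblast markers summed to 1194 to 1294 CPM in ST and 1392 to 1525 CPM in WT hearts, with 3 called higher and 4 lower. The collagens were lower in ST, with Col3a1 at 132 to 170.3 CPM in ST and 298 to 346 CPM in WT hearts, whereas Dcn, at 528 to 582 and 460.3 to 479 CPM, lay above WT without overlap. Erythroid markers (7) summed to 354 to 392 CPM in ST and 171 to 235 CPM in WT hearts, and Schwann cell and nerve markers (6) to 21.5 to 29.8 and 31.4 to 36.0 CPM. B and plasma cell markers, though near 0, summed to 2.32 to 3.67 CPM in ST and 1.64 to 2.01 CPM in WT hearts. The sums of 8 macrophage markers overlapped, at 134 to 187 and 141 to 183 CPM, as did those of endothelial, smooth muscle, mesothelial, adipocyte, and T and NK cell markers. Overlapping sums hid changes of single markers. Of 8 smooth muscle and pericyte markers, 4 were called higher and 1 lower, and of 9 endothelial markers 3 higher and 2 lower. Acta2 was at 56.4 to 87.1 CPM in ST and 27.5 to 34.8 CPM in WT hearts. Abcc9 was at 272 to 290 CPM in ST and 359 to 407 CPM in WT hearts. Of the 3 mesothelial markers tested, 1 was called higher and 2 lower, with Wt1 at 25.7 to 30.7 CPM in ST and 14.2 to 16.6 CPM in WT hearts and Msln at 0.00 to 1.48 and 3.01 to 9.09 CPM.

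At 2 months erythroid markers summed to 303 to 396 CPM in ST and 146 to 179.7 CPM in WT hearts, and smooth muscle and pericyte markers to 864 to 883 and 747 to 786 CPM. Of the 7 smooth muscle and pericyte markers tested, 5 had a positive and 2 a negative log2 fold change, and 0 were called. Abcc9, the marker with the highest level, was at 409 to 458 CPM in ST and 364 to 375 CPM in WT hearts. Pdgfrb was lower in ST hearts, at 74.3 to 79.0 CPM against 95.7 to 101 CPM in WT hearts, as was Kcnj8. Mesothelial markers summed to 18.0 to 21.7 CPM in ST hearts and 10.5 to 10.7 CPM in WT hearts, and T and NK cell markers to 2.36 to 2.67 and 4.02 to 4.23 CPM, whereas fibroblast and heart muscle sums overlapped.

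In ST hearts of 8 months macrophage markers summed to 105 to 119.9 CPM, below both groups of 6 months, and endothelial markers to 1311 to 1381 CPM, above both. Heart muscle markers summed to 110685 to 111911 CPM, above both groups of 6 months. Of these markers 5 were called higher and 2 lower against ST and 5 higher and 3 lower against WT hearts of 6 months. Myh6, at 46350.4 to 48524 CPM at 8 months, lay below the WT hearts, and Ryr2, at 1962 to 2169 CPM at 8 months, 2589 to 2762 CPM in ST and 2327 to 2702 CPM in WT hearts of 6 months, below both groups, as did Nkx2-5. Fibroblast markers summed to 1368 to 1466 CPM, above ST hearts of 6 months, with 4 called higher and 3 lower. Col3a1 was at 312 to 328 CPM at 8 months, above ST hearts of 6 months, and Tcf21 below them, at 5.72 to 9.04 CPM at 8 months and 19.8 to 21.8 CPM in ST hearts of 6 months. The adipocyte sum was nearly all Fabp4. This gene, at 586 to 703 CPM at 8 months, 378 to 479.6 CPM in ST and 447 to 489 CPM in WT hearts of 6 months, was the 1 marker of 7 with enough counts to test, and the other markers were at 0.212 CPM or less at 6 and 8 months. The part of these cell types in the changes of the ER genes was not tested.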

How the data were processed

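Total RNA of 13 rat hearts was sequenced in bulk. The authors deposited expected counts, 1 table per time point, as mostly whole numbers whose totals differ between samples. No source used here names the counting tool. Per the submitters' processing notes the builds were GRCm38 and mm10, which are mouse, although the gene names are those of the rat. Groups follow the labels. Where these do not say that replicates are separate animals, p-values measure the spread between these samples only.

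The values were rounded to the nearest whole count. Each comparison was fitted over its own libraries and all genes kept by filterByExpr, scaled by TMM and tested two-sided with glmQLFTest of edgeR 4.0.16 in R 4.3.3 (quasi-likelihood), and Benjamini-Hochberg adjustment over all genes tested, at a threshold of 0.05. Standard errors (SE) of log2 fold changes were taken as the absolute fold change over the root of its F value. The difference of the ST effect was an interaction contrast over the 23019 names in both kinds of table. Library totals ran from 4.70 to 11.3 M counts. No replicate pair was identical: the chi-square per gene was 1.93 to 12.1. The spread differed between groups. Pairs of ST hearts of 8 months had 2.12 to 2.31. At 6 months pairs of ST hearts had 1.93 to 8.67 and pairs of WT hearts 2.13 to 8.49. At 2 months the ST pair had 12.1 and the WT pair 7.68. The fit was also tested on simulated data.

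Alternatives were DESeq2 size factors, library totals alone, no filter on low counts, DESeq2 1.42.0, a replicate block and leaving out each library. Replicate numbers were not taken as pairs in the main fit. All 35 genes are accounted for; of the further pathway genes, up to 3 called genes with the smallest p per list and comparison could be named, and the text names a selection of them. Genes and lists were chosen with earlier results of these data known. Promoter sequences are RefSeq windows of GRCr8, matched by symbol, with chromosome, start and end counted from 1.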

Additional observations from a re-analysis of the deposited data

Results flagged for a closer look

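For 14 of the 35 genes the effect of ST over WT differed between 6 and 2 months by the interaction test of edgeR (adjusted p under 0.05 over all genes). The values below are log2 effects at 6 minus 2 months. Among the chaperones, the difference was 0.89 for Hspa5, 0.81 for Hsp90b1, 0.99 for Dnajb11, 1.27 for Sdf2l1, 0.73 for Manf, 0.64 for Calr and 0.41 for Canx, all higher at 6 months. The disulfide isomerases Pdia4 and Pdia6 differed by 0.64 and 0.56. Herpud1 and Edem1, of the degradation machinery, had lower effects at 6 months, by -0.64 and -0.86. The sensors parted, with Ern1 at 0.96 and Eif2ak3 at -0.70, and the translocation pore Sec61a1 was at 0.40. Scaled by library totals, the calls of this difference over all genes were 1004 higher and 1896 lower, against 1296 and 1517 with TMM, and those of the ER genes 9 higher and 3 lower.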

How the results depend on the processing

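Over all alternatives, none of the 66 calls of single ER genes changed direction. At 2 months, where groups hold 2 hearts, counts depended on the libraries: 582 genes were called, against 1019 with no filter and 359 with DESeq2, and from 271 (without WT replicate 1) to 2013 (without ST replicate 2) when 1 library was left out. The ER genes called were 2, against 1 with DESeq2 and from 0 (without WT replicate 1, and without WT replicate 2) to 5 (without ST replicate 2). For the difference between 6 and 2 months, 2813 genes were called, and from 1558 (without WT replicate 1 of 2 months) to 3194 without 1 library. The ER genes called without 1 library were 14 to 17 at 6 months (16 with all), 18 to 20 for ST at 8 against 6 months (22), 9 to 13 against WT (12) and 10 to 15 for the difference (14). With 1 library left in a group at 2 months, it was assumed to vary like the others. Depth limits Derl3, at 2 to 17 counts per library at 6 and 8 months. Same-numbered replicates correlated at 0.01 to 0.27 after removal of group means, and those of different number at -0.21 to 0.15. The same-numbered values were all positive but small, and the numbers were not taken as pairs. With a replicate block the ER genes called were 2, 18, 23, 12 and 15 in the order 2 months, 6 months, 8 against 6 months, 8 against WT, difference, and all counts stayed within 1.5 times of the fit without it. The block took away no call of an ER gene and added Sdf2l1 and Xbp1 at 6 months, Eif2ak3 at 8 against 6 months and Creld2 for the difference.
Without 1 library some uncalled genes passed: Ssr1 at 8 against 6 months (without ST replicate 1 of 8 months), P4hb, Sec61b and Atf6b at 8 months against WT, and Dnajc3, Pdia3 and Creld2 for the difference, at adjusted p from 0.00264 to 0.0495.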
